A study of Oryctolagus cuniculus with 8 samples.

Results

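KRT7, KRT8, KRT18 and VIM are the simple-epithelial keratin genes and the vimentin gene of this series, 4 of 20922 gene entries, taken by exact match of the gene name. They were read in 8 RNA-seq libraries of cells sorted from rabbit limbal epithelium, the tissue at the border of cornea and conjunctiva. In 4 libraries the cells were the side population (SP), which keeps little Hoechst DNA dye because it pumps the dye out. In the other 4 they were non-side-population cells (NSP), the remaining cells of the sort. The SP libraries also held many marker reads of non-epithelial cells, given below. Both groups came from New Zealand white rabbits, and the labels name no treatment, genotype or age for either. Whether each sample is its own animal is not in the labels, and the p-values reflect library-to-library spread that may be technical. The table held 15553295 to 18931836 exon reads in an SP library and 20445565 to 23529101 in an NSP library.

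Intermediate filaments are the tough, rope-like part of the cytoskeleton. Keratins build them only as pairs of 1 type I and 1 type II protein. KRT8 (type II) with KRT18 (type I) is the pair of single-layered and glandular epithelia, and KRT7 (type II) is a keratin of ducts, glands and mucosal epithelia that also marks conjunctival cells. The stratified cornea and limbus use other keratins for most of their filaments, such as KRT3 with KRT12 in the cornea and KRT15 in basal limbal cells. VIM, a type III protein, forms filaments by itself and is typical of fibroblasts, endothelium, leukocytes and melanocytes.

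VIM was about 194-fold higher in SP libraries, with no overlap between the groups. KRT18 was 2.58-fold higher, but its groups overlapped and the call was lost under 8 of 15 alternative settings. Neither KRT7 nor KRT8 passed the test. The pair KRT8 and KRT18 did not change alike between the groups, although each group kept close to its own ratio. KRT8 had 1.48 to 1.72 reads for each KRT18 read in SP libraries and 4.62 to 5.71 in NSP libraries. Levels are given as CPM, reads scaled with TMM factors to a common library total. Each log2 fold change divides SP by NSP and carries its standard error. It comes from limma-voom over 10012 tested genes, with a Benjamini-Hochberg adjusted p of 0.05 as the threshold. All 4 genes passed the filter on low counts. Of the 4 genes, 2 passed the test, both higher in SP, where 30.8% of all tested genes passed in either direction, 17.6% as higher and 13.3% as lower in SP. Libraries are numbered by their place in the table within a group, and the numbers are not those of the sample labels. With upper-quartile factors the calls over all genes were 1407 higher and 1650 lower, against 1758 higher and 1330 lower with TMM factors. The median log2 fold change of all tested genes was 0.11 with TMM factors, 0.00 with median-ratio factors and -0.07 with upper-quartile factors.

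VIM had 2031, 2336, 4929.9 and 3879 CPM in the 4 SP libraries, against 16.7, 11.9, 12.6 and 25.7 CPM in the 4 NSP libraries. The groups did not overlap, which was true of 32.8% of all tested genes (18.6% with SP higher), and the lowest SP library stood far above the highest NSP library. The mean was 3294 ± 1358 CPM in SP and 16.7 ± 6.34 CPM in NSP (SD, n = 4 each), a log2 fold change of 7.60 ± 0.38 with a 95% interval from 6.75 to 8.45 (limma-voom adjusted p = 1.19e-05). Of the 10012 tested genes, 243 or 2.43% had a larger log2 fold change. VIM took 0.231% to 0.488% of all exon reads of an SP library and 0.00122% to 0.00254% of an NSP library. Divided by exon length, its level ranked 38th to 71st among tested genes in SP libraries and 3661st to 5232nd in NSP libraries. In the authors' deposited table, whose EDGE test gives NSP against SP with a minus sign where NSP is lower, VIM had a fold change of -181 and a corrected p listed as 0.

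**Figure D1:**
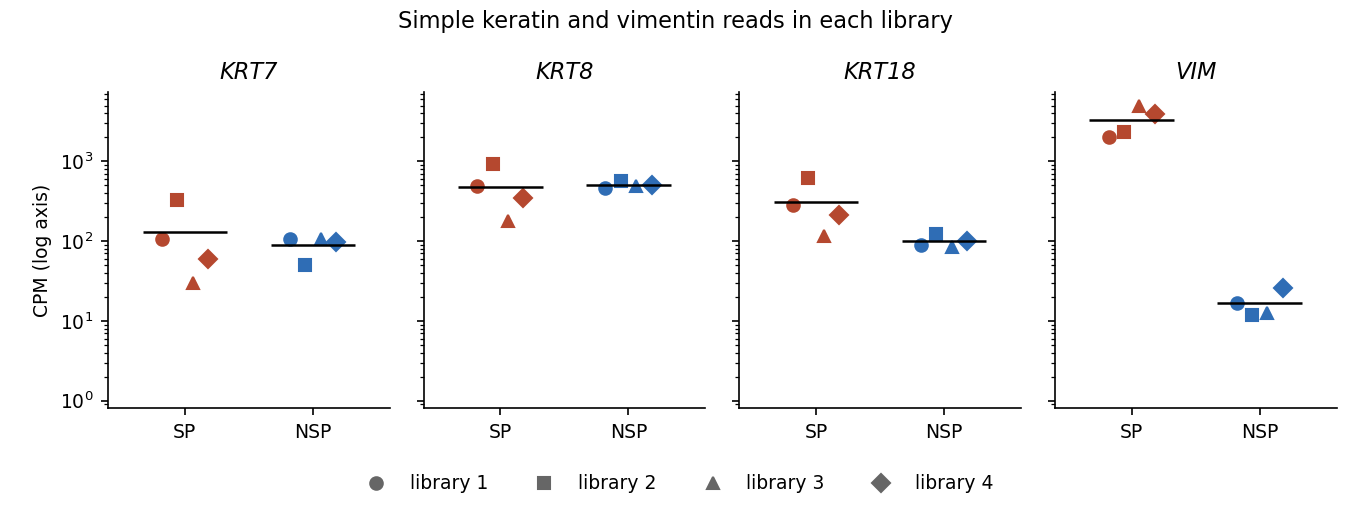
CPM (log axis) of KRT7, KRT8, KRT18 and VIM in 4 SP and 4 NSP libraries, 1 symbol per library, with the group mean as a line. VIM lies at 2031 CPM or more in SP and at 25.7 CPM or less in NSP, the KRT18 groups overlap through SP library 3 (116 CPM), and KRT7 and KRT8 spread wider in SP than in NSP.

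KRT18, the type I partner of KRT8, had 285, 618, 116 and 215 CPM in SP libraries, against 90.6, 124.7, 85.5 and 101 CPM in NSP libraries. SP libraries 1, 2 and 4 exceeded every NSP library, and SP library 3 fell within the NSP range. The mean was 308 ± 218 CPM in SP and 100.5 ± 17.4 CPM in NSP (SD, n = 4 each). KRT18 rose by a log2 fold change of 1.37 ± 0.43, with a 95% interval from 0.42 to 2.32 (limma-voom adjusted p = 0.0338). The call was lost with upper-quartile factors (1.18, adjusted p = 0.0594) and in 7 of 8 fits with a library removed, all but the fit without SP library 3. In those 7 the log2 fold change lay between 0.95 and 1.48 and limma-voom adjusted p between 0.0534 and 0.125. Without SP library 3 it was 1.75 (adjusted p = 0.00709), and without SP library 2 it was 0.95 (adjusted p = 0.0606). In the authors' deposited table KRT18 had an EDGE fold change of -2.83 for NSP against SP and a corrected p of 0.0116.

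KRT8, the type II partner, was at 489, 915, 177 and 353 CPM in SP libraries, against 462, 576, 488 and 512 CPM in NSP libraries. SP library 2 stood above every NSP library, SP libraries 3 and 4 below them, and SP library 1 within their range. Its mean was 484 ± 315 CPM in SP and 509 ± 48.9 CPM in NSP (SD, n = 4 each). The log2 fold change was -0.31 ± 0.42, with a 95% interval from -1.24 to 0.61, a ratio of SP over NSP between 0.424 and 1.53 (limma-voom adjusted p = 0.607). The sign turned to 0.09 without SP library 3. The highest SP library had 5.17 times the level of the lowest, while the NSP libraries differed by 1.25 times at most. The authors' deposited table gave KRT8 an EDGE fold change of 1.14 for NSP against SP and a corrected p of 1.

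KRT7, the ductal and mucosal keratin, had 107, 331, 29.6 and 59.1 CPM in SP libraries, against 105.1, 50.8, 107.5 and 97.0 CPM in NSP libraries. The SP values lay on both sides of the NSP values, with SP library 2 above all of them and SP library 3 below all of them. The SP mean was 132 ± 137 CPM and the NSP mean 90.1 ± 26.5 CPM (SD, n = 4 each), with a log2 fold change of 0.05 ± 0.62 and a 95% interval from -1.32 to 1.42 (limma-voom adjusted p = 0.96). Its sign was negative with median-ratio factors (-0.06), with upper-quartile factors (-0.14), with uniquely placed reads (-0.08) and without SP library 1 or 2 or NSP library 2. The SP libraries spanned 11.2 times from lowest to highest, against 2.11 times for the NSP libraries. The authors' deposited table listed an EDGE fold change of -1.34 for NSP against SP and a corrected p of 1 for this gene.

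A ratio of reads within a library does not depend on the scaling, so it compares the changes of a pair of genes directly. The reads of KRT8 divided by those of KRT18 came to 1.72, 1.48, 1.53 and 1.64 in the SP libraries, against 5.09, 4.62, 5.71 and 5.06 in the NSP libraries. Each group kept close to its own ratio, although the level of both genes varied more than 5-fold among SP libraries. The mean log2 ratio was 0.67 ± 0.10 in SP and 2.35 ± 0.12 in NSP (SD, n = 4 each), a difference of -1.68, and the groups did not overlap. An exact two-sided permutation test over all 70 splits gave p = 0.0286, the smallest it can give, and 0.0429 after Benjamini-Hochberg adjustment over the 6 pairs of the 4 genes. The adjusted value leans on the ratios of a keratin over VIM among the 6 pairs. Those reach the same smallest p through the VIM difference, so the adjusted value is no added support. Counting only uniquely placed reads gave -1.71. Per base of exon, KRT8 exceeded KRT18 by 1.21 to 1.41 times in SP libraries and by 3.79 to 4.68 times in NSP libraries.

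The other keratin pairings were looser. KRT7 over KRT8 had a mean log2 ratio of -2.20 ± 0.52 in SP and -2.55 ± 0.64 in NSP (SD, n = 4 each), a difference of 0.35 (exact permutation p = 0.543, adjusted p = 0.543). KRT7 over KRT18 had a mean log2 ratio of -1.53 ± 0.49 in SP and -0.20 ± 0.75 in NSP, a difference of -1.33 that missed the threshold (exact permutation p = 0.0571, adjusted p = 0.0686). The NSP spread of both ratios came largely from NSP library 2, where KRT7 was lowest and KRT8 and KRT18 highest. Each of the 3 ratios of a keratin over VIM separated the groups, with differences of -7.55 for KRT7, -7.91 for KRT8 and -6.22 for KRT18 (exact permutation p = 0.0286 and adjusted p = 0.0429 for each). The VIM gap between the groups was far wider than the spread of any keratin. These 3 outcomes were therefore fixed by VIM and restate its difference.

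**Figure D2:**
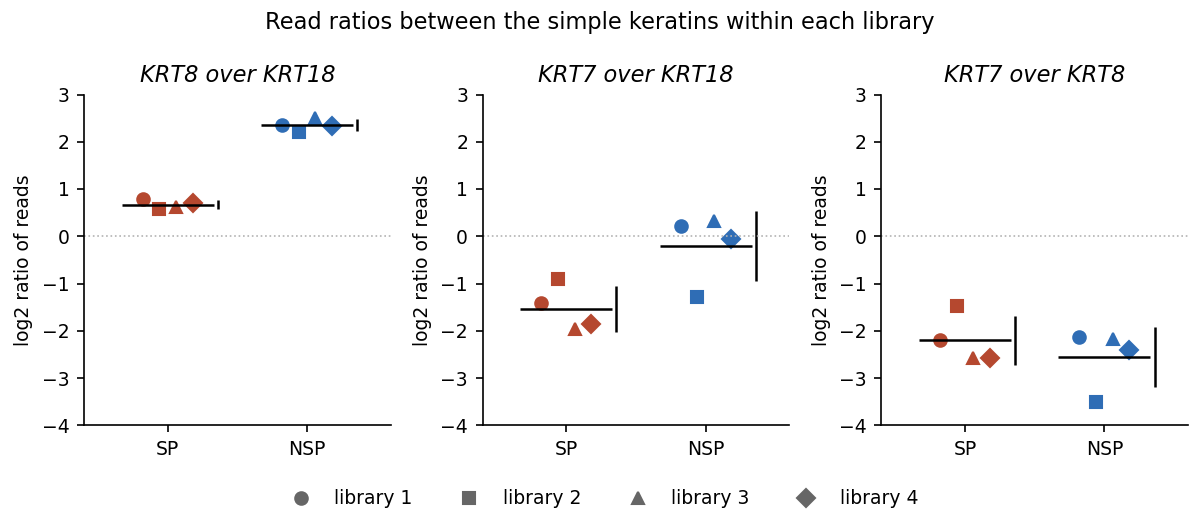
Log2 ratio of reads for KRT8 over KRT18, KRT7 over KRT18 and KRT7 over KRT8, with 1 symbol per library, the group mean as a horizontal line and ± 1 SD as a vertical line. The KRT8 over KRT18 ratio is tight in both groups and sits at 0.67 ± 0.10 in SP and 2.35 ± 0.12 in NSP, while the ratios with KRT7 spread more.

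Levels can be set against each other only per length. In SP libraries VIM stood at 1747 ± 720.4 CPM per kilobase of exon, KRT8 at 278 ± 181, KRT18 at 216 ± 153 and KRT7 at 201 ± 208 (SD, n = 4). VIM was above each keratin in every SP library. The 3 keratins overlapped within their spread, although KRT8 was above both KRT18 and KRT7 in each library taken alone. In NSP libraries the order was KRT8 at 293 ± 28.1 CPM per kilobase, KRT7 at 137 ± 40.5, KRT18 at 70.4 ± 12.2 and VIM at 8.88 ± 3.36 (SD, n = 4). There KRT8 and VIM stood clear of the others in every library, while the ranges of KRT7 (77.5 to 164) and KRT18 (59.9 to 87.4) overlapped. VIM reads made up 69.7%, 55.6%, 93.9% and 86.1% of the reads of the 4 genes in SP libraries, against 2.48%, 1.56%, 1.82% and 3.49% in NSP libraries (means 76.3% and 2.34%, exact permutation p = 0.0286). This share restates the VIM difference and is no separate result.

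Part of the keratin reads could not be placed at a single position. Uniquely placed reads were 74.4% to 77.3% of KRT7 reads in SP and 75.5% to 79.5% in NSP. For KRT8 they were 81.1% to 86.2% over all 8 libraries, and for KRT18 they were 73.3% to 75.9% in SP and 69.4% to 74.5% in NSP. VIM reads were placed uniquely at 99.8% or more in every library. The levels of the 3 keratins are therefore uncertain by the part of reads shared with other positions, while their log2 fold changes with uniquely placed reads were -0.08 for KRT7, -0.42 for KRT8 and 1.29 for KRT18 (limma-voom adjusted p = 0.939, 0.475 and 0.044). The KRT7 model of the table has 4 exons and 656 bases, against 9 exons and 1741 bases for KRT8, 7 exons and 1427 bases for KRT18 and 9 exons and 1885 bases for VIM. Reads that span an exon junction were 75.3% to 80.5% of KRT7 reads, 58.6% to 61.2% of KRT8 reads, 57.4% to 65.1% of KRT18 reads and 52.1% to 63.5% of VIM reads.

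The simple keratins made up more of the keratin reads in SP, beside a lower summed level of the other named keratins. Of the reads of the 37 keratin genes with a usable name, KRT7, KRT8 and KRT18 held 12.1%, 30.8%, 24.9% and 10.1% in SP libraries, against 1.73%, 2.52%, 3.32% and 2.12% in NSP libraries. The groups did not overlap, with means of 19.5 ± 10.02% in SP and 2.42 ± 0.68% in NSP (SD, n = 4 each; exact permutation p = 0.0286, the smallest possible). The 3 genes together had 924 ± 667 CPM in SP and 700.0 ± 40.6 CPM in NSP, while the other 34 named keratins had 4292 ± 2397 CPM in SP and 29775 ± 7459.8 CPM in NSP. The mean log2 of these sums differed by 0.12 for the 3 genes and by -3.06 for the other 34. The share and its p therefore follow mostly the other keratins and show no rise of the 3 genes. A higher share was also not particular to them. KRT19 held 4.34% to 24.4% of keratin reads in SP and 0.618% to 1.17% in NSP. KRT4 held 9.56% to 21.4% in SP and 5.31% to 8.67% in NSP. The shares of KRT3, KRT12 and KRT13 overlapped between the groups. KRT15, the basal limbal keratin and the largest share in NSP, held 0.751% to 32.6% of keratin reads in SP and 39.3% to 59.7% in NSP. KRT5 and KRT14 had no usable entry and are not in these shares.

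**Figure D3:**
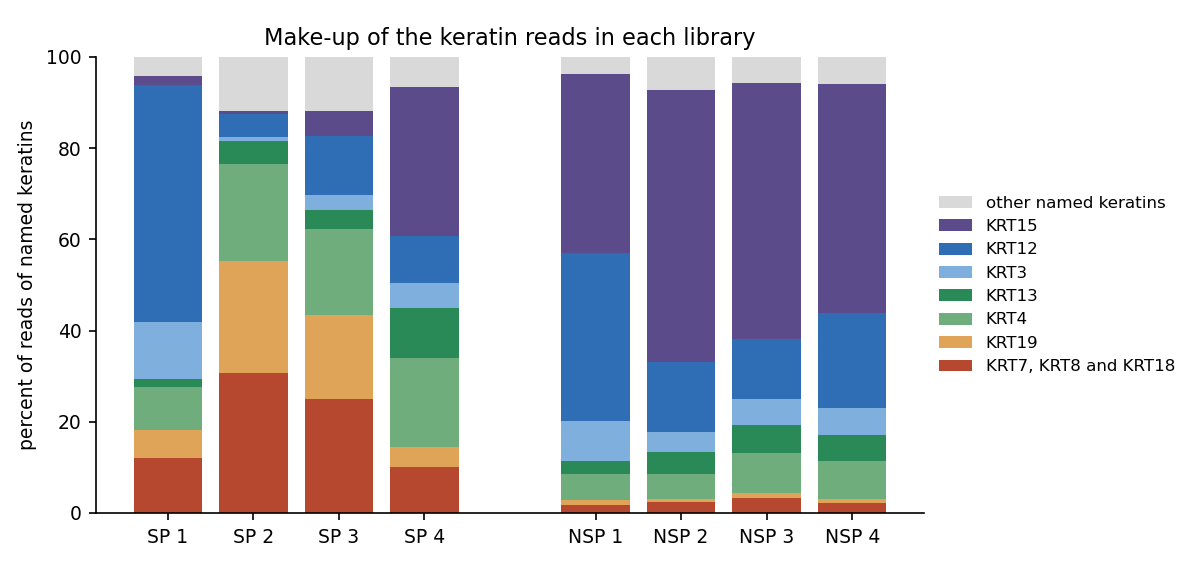
Percent of the reads of 37 named keratin genes held by the simple keratins, KRT19, KRT4, KRT13, KRT3, KRT12, KRT15 and the rest, in each SP and NSP library. The simple keratins hold 10.1% to 30.8% in SP and 1.73% to 3.32% in NSP, and KRT15 is the largest share of each NSP bar (39.3% to 59.7%).

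Among the other intermediate filament genes, 27 of 66 listed genes were tested, of which 16 fell, 2 rose and 9 did not pass, with a median log2 fold change of -2.51 against 0.11 over all tested genes, of which 13.3% fell. The falls with the smallest p were KRT10 (-3.96 ± 0.42, limma-voom adjusted p = 0.000213), a keratin of upper epidermal layers, KRT15 (-6.42 ± 1.02, 0.0013) and KRT16 (-4.28 ± 0.74, 0.00194), a keratin of wounded and stressed epithelium. The rises were the nuclear lamin genes LMNB1 (1.72 ± 0.48, adjusted p = 0.0215) and LMNB2. LMNB2 had 439 reads over the SP libraries and none over the NSP libraries, so that it entered the test through SP alone, and was at least 174-fold higher, with the NSP group set at a floor of 3 reads in all, which covers counting error only. KRT19, a type I keratin that can pair with KRT7 and KRT8 and was looked at after its values were seen, averaged 607 CPM in SP libraries against 296 CPM in NSP libraries and did not pass (0.70 ± 0.53, adjusted p = 0.35).

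Genes for proteins that tie filaments to junctions or bind them counted more falls than rises. Of 32 listed linkers and partners 21 were tested, of which 11 fell, 1 rose and 9 did not pass, with a median log2 fold change of -1.57, beside the 13.3% of all tested genes that fell. The smallest p among the falls belonged to DSG3 (-4.12 ± 0.66), a desmosomal cadherin, CRYAB (-1.57 ± 0.26), a small heat shock protein that guards filaments, and SFN (-3.47 ± 0.59), a 14-3-3 protein of stratified epithelia (limma-voom adjusted p = 0.00136, 0.00176 and 0.00177). PKP4, an armadillo protein of cell junctions, rose (1.78 ± 0.36, adjusted p = 0.00425). Of 14 tested kinases and proteases that act on filaments, 2 rose, 1 fell and 11 did not pass, where 30.8% of all tested genes passed, so the count shows nothing particular to these genes. These were MAPK14 (0.78 ± 0.24, adjusted p = 0.0303), PAK2 (0.79 ± 0.26, 0.0439) and, lower in SP, PAK1 (-2.13 ± 0.42, 0.00393). Of 15 tested regulators of the epithelial state 11 fell and 4 did not pass (13.3% of all tested genes fell). Regulators of the mesenchymal state had 6 tested genes of 12 listed, of which 2 rose (TCF4 and ZEB1), 1 fell (SNAI2) and 3 did not pass. Of all tested genes 17.6% were higher in SP, and with so few genes the count shows nothing particular to this list. ZEB1 had 15 reads over the NSP libraries, where each was below the 0.508 CPM of the filter, so it entered the test only through its SP reads and its rise is no support for the list.

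Markers of cell types that use vimentin were higher in the same SP libraries. Of tested endothelial markers 13 of 13 rose, where 17.6% of all tested genes were higher in SP. Their summed level was 2206 to 20579 CPM in SP and 9.71 to 15.7 CPM in NSP. For T and NK cells 12 of 12 rose (1991 to 8723 CPM in SP, 3.43 to 7.97 CPM in NSP), and for melanocytes 9 of 10 (2176 to 13519 CPM in SP, 188 to 336 CPM in NSP). Myeloid markers rose in 8 of 10 cases (1168 to 2562 CPM in SP, 36.4 to 65.0 CPM in NSP), pan-leukocyte markers in 7 of 8 (1118 to 3487 CPM in SP, 237 to 625 CPM in NSP) and B and plasma cell markers in 5 of 6 (272 to 823 CPM in SP, 3.45 to 6.51 CPM in NSP). Of 11 stromal and mural markers 7 rose and RGS5 fell (305 to 530.4 CPM in SP, 99.5 to 115 CPM in NSP), and of 7 Schwann cell markers 4 rose and NGFR fell (472 to 1287 CPM in SP, 225 to 311 CPM in NSP). MS4A1 and MZB1 of B and plasma cells and COL3A1 of stroma had no read in NSP libraries, and PECAM1 of endothelium had 7 reads and PTPRC of leukocytes 35 reads there. A marker near 0 in NSP entered the test only through its SP reads and could be called only as a rise. These counts therefore lean towards rises and are no support for any cell type. The part of these cells in the VIM difference was not tested, and in bulk libraries fewer cells of a type and less RNA per cell cannot be told apart.

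Limbal and corneal epithelial markers ran the other way, with 13 of 13 tested genes lower in SP, against 13.3% of all tested genes (1034 to 7131 CPM summed in SP, 28032 to 48181 CPM in NSP). Among markers of glandular and simple epithelium 3 of 7 fell and 4 did not pass, with sums of 282 to 6233 CPM in SP and 2427 to 5185 CPM in NSP. The falls were EPCAM, AQP5 and CLDN8. EPCAM is also listed among the regulators of the epithelial state. In NSP libraries AQP5 averaged 1115 CPM, EPCAM 857 CPM and PIGR 809 CPM, so the sum cannot be read as specific to glandular cells. Goblet cell markers had 1 tested gene, GALNT5, which did not pass, and sums of 0.32 to 32.6 CPM in SP and 0.851 to 3.25 CPM in NSP. MUC5AC was not analysed here, and SPDEF, a goblet cell factor, had 361 reads in SP and 22 in NSP. Markers of Merkel cells, touch receptor cells that carry KRT8, KRT18 and KRT20, gave 1 rise (PIEZO2) and 3 genes that did not pass among 4 tested (27.5 to 51.6 CPM summed in SP, 23.8 to 80.4 CPM in NSP). Their defining factor ATOH1 had 1 read in SP libraries and 0 in NSP libraries. KRT20 had 217 reads over the SP libraries, against 2142 over the NSP libraries, and did not pass (-2.51 ± 0.91, limma-voom adjusted p = 0.0581).

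Within the SP group the simple keratins and VIM took different orders. KRT7, KRT8 and KRT18 were each highest in SP library 2, then in library 1, library 4 and library 3. VIM was highest in library 3, then in library 4, library 2 and library 1. The summed glandular and simple epithelial markers, at 3029, 6233, 282 and 1155 CPM in SP libraries 1 to 4, and the summed goblet markers, at 11.6, 32.6, 0.32 and 7.43 CPM, had the order of the simple keratins. The goblet sum holds only 3 of 9 listed genes, of which CLCA1 had no SP read. PIGR, the receptor that carries antibodies across glandular epithelium, made up much of the glandular sum, with 1868, 4916, 92.6 and 611 CPM. Without it the other 6 genes summed to 1161, 1317, 189 and 544 CPM, in the same order. The limbal and corneal sum, at 7131, 2369.7, 1034 and 5193 CPM, did not, being highest in SP library 1. The T and NK sum was highest in SP library 3 (8723 CPM), where VIM was highest, and so were the myeloid (2562 CPM), pan-leukocyte (3487 CPM) and stromal and mural (530.4 CPM) sums. The melanocyte and Schwann sums were highest in SP library 1 (13519 and 1287 CPM), where VIM was lowest, and the endothelial and the B and plasma sums in SP library 4 (20579 and 823 CPM). None of these sums had the full order of VIM. The myeloid (1168 CPM) and pan-leukocyte (1118 CPM) sums were lowest in SP library 4, where VIM was second highest. With 4 libraries these orders are a description, and their part in the differences between the groups was not tested.

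**Figure D4:**
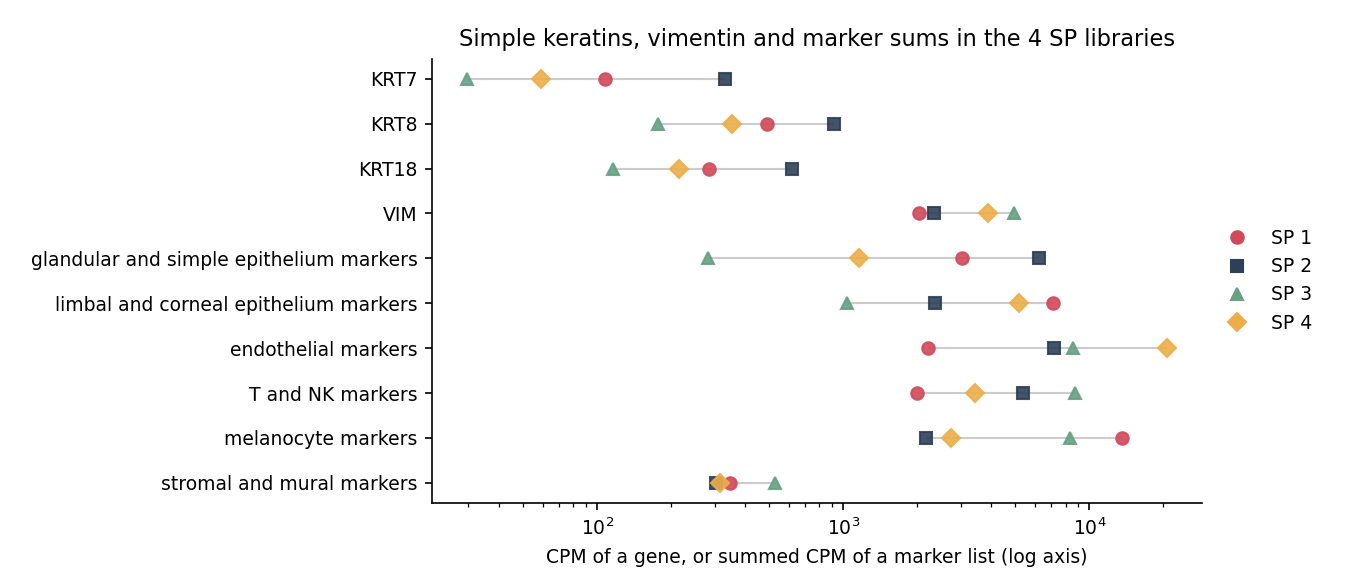
CPM of KRT7, KRT8, KRT18 and VIM and the summed CPM of 6 marker lists (log axis) in the 4 SP libraries, 1 symbol per library. The 3 keratins and the glandular and simple epithelial sum run from SP 3 (lowest) over SP 4 and SP 1 to SP 2 (highest), and VIM runs from SP 1 (2031 CPM) to SP 3 (4929.9 CPM).

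The named genes nearest to each of the 4 by pattern were found as those with the smallest root mean square difference of centred log2 CPM over the 8 libraries, among 8585 genes. For KRT7 these were SLC13A5 (0.20), FAM20A (0.26), RAB3IP (0.26) and PROSER2 (0.31), and for KRT8 they included PIGU (0.24), SH3RF1 (0.24) and FANCM (0.27). KRT8 itself lay at 0.54 from KRT7 and at 0.85 from KRT18. The nearest to KRT18 were GREB1L (0.38), TMPPE (0.40), SLC45A3 (0.41) and SLC44A4 (0.42), none of which passed the test between the groups (limma-voom adjusted p from 0.0574 to 0.261). The nearest to VIM were TMEM163 (0.36), LMNB2 (0.51), GATA6 (0.53) and ICAM2 (0.54). TMEM163, LMNB2 and GATA6 had no NSP read, so their distance depends on the 0.5 reads added before the logarithm, and against the same floor TMEM163 was at least 149-fold and GATA6 at least 198-fold higher in SP. ICAM2 averaged 0.32 CPM in NSP libraries, below the 0.508 CPM of the filter. All 4 genes nearest to VIM thus entered the test only through their SP reads.

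**Figure D5:**
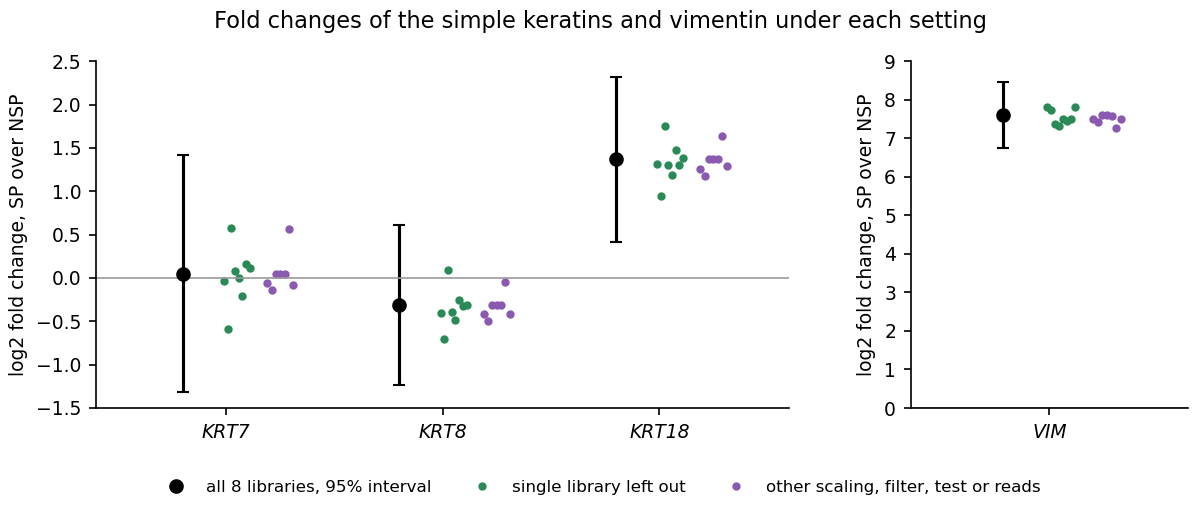
Log2 fold change, SP over NSP, of KRT7, KRT8, KRT18 and VIM from limma-voom, with the 95% interval over all 8 libraries (black), each library left out in turn (green) and the other scalings, filters, tests and read set (purple). VIM stays between 7.27 and 7.82 and KRT18 between 0.95 and 1.75, while KRT7 and KRT8 have points on both sides of 0.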

How the data were processed

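The deposited data are 1 text table with lines of 163 fields, each 8 characters wide, split into 6 blocks; its fields touch and were read by position, 19 for each library. For aligner, build and annotation, the sources used here give none. Headers are truncated to the group, and libraries are numbered 1 to 4 in column order. Field meanings were taken from the values: the first field of each library equals total exon reads for all 20922 entries, and the authors' group means were recomputed within 0.05. Uniquely placed reads, junction reads, exon length and exon number were also read, and the other 112 per-library fields were not used. Complete names (10603) and 315 names matched to 1 symbol of a RefSeq gene table (assembly mOryCun1.1, names only) were usable; the other 10004 entries, with 10.1% of reads, stayed in totals and tests unnamed.

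Genes with at least 0.508 CPM in 4 libraries and 15 reads in all were kept (10012). TMM factors (trims 30% and 5%) were computed here, and limma-voom (limma 3.58.1, R 4.3.3; offset 0.5; group only) was fitted to all of them. Tests that model raw counts directly were not run, since the touching fields show no count column to a reader that splits the lines. The procedure was tested on simulated data with the same spread in all genes and both groups and few changed genes. That setting differs from these libraries, so it does not show how the test behaves with the wider SP spread. Ratios and shares were put through an exact permutation test of all 70 splits (Python 3.11.15, SciPy 1.17.1). Alternatives were other factors, filters and tests, each library left out, and, added after the data were seen, uniquely placed reads.

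The 4 genes, the 5 gene lists and the 12 marker lists were chosen with earlier results of these data known. The text names the 4 genes, in each list up to 3 rises and 3 falls of smallest p, defining markers and the 4 nearest genes by pattern, of which 1 is not reported here; for marker lists mostly counts and sums are given.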

Additional observations from a re-analysis of the deposited data

How the results depend on the processing

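VIM kept its direction and its call under all 15 alternatives run, with log2 fold changes from 7.27 to 7.82. KRT18 kept its direction under all 15 and its call under 7 of them. It lost the call with upper-quartile factors (1.18), and over the fits without 1 library it ranged from 0.95 to 1.75. KRT7 and KRT8 passed the threshold under none of these alternatives. The sign of KRT7 turned with median-ratio factors (-0.06), upper-quartile factors (-0.14) and uniquely placed reads (-0.08), and it ranged from -0.59 to 0.58 without 1 library. KRT8 ranged from -0.70 to 0.09 without 1 library. The calls over all genes numbered 3088, and 2055 to 3410 without 1 library, the lowest without SP library 3. The 6 pair ratios and both shares kept their direction under every alternative run, and KRT8 over KRT18 lay between -1.73 and -1.63. Without 1 library these ratios were not tested. The cause of these changes was not tested.

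No paired analysis was possible because the columns carry no replicate number; the library numbers used here give only the place in the table. The block fit was therefore not run. None of 24 groups of 4 values held a library that Dixon's ratio at its 95% critical value sets apart. The order of the glandular sums in SP without PIGR was computed after the data were seen.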
